A study of Ovis aries with 15 samples.

Results

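Transcripts of 9 genes of the renal intercalated cell were followed through sheep kidney RNA sequencing, taken by their symbols from the 25592 genes of the deposited expression table. They were the anion exchangers SLC4A1, SLC26A4 and SLC4A9, the proton pump subunits ATP6V1B1, ATP6V0A4, ATP6V0D2 and ATP6V1G3, the transcription factor FOXI1 and the ammonia transporter RHCG, and all 9 were present. The sheep were male Dorper × Small-tailed Han crosses, 4 months old, fed for 21 d. The CON group received the total mixed ration alone, the AFB1 group the ration with aflatoxin B1, a fungal toxin of feed, at 500 µg/kg dry matter, and the AFB1_CUR group the same toxin dose together with curcumin, a plant polyphenol, at 800 mg/kg dry matter. The comparisons ask whether the toxin changed the kidney transcriptome and whether curcumin altered that change. Each group had 5 libraries, and the part of the kidney taken for RNA is not stated. The animals were penned in pairs, and the labels name neither the pen nor more than a replicate number, so p-values measure the spread between these libraries, which may be partly technical.

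Intercalated cells are scattered among the principal cells of the connecting tubule and collecting duct, where they set the acid and base content of the final urine. Type A cells secrete protons into the urine through an apical vacuolar proton pump (V-ATPase) and return bicarbonate to the blood through the basolateral exchanger encoded by SLC4A1. Type B cells work in the opposite direction and secrete bicarbonate through the apical exchanger pendrin, encoded by SLC26A4. FOXI1 is required for both types to form, and loss of ATP6V1B1, ATP6V0A4 or FOXI1 causes distal renal tubular acidosis in humans.

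The library labelled AFB1 replicate 1 stood apart from the other 14 and is shown apart throughout. Its ALB count, for liver-made albumin, was 3190765, against 0 to 2846 in the others, and its AQP2 and UMOD counts, for the principal cell water channel and the loop protein uromodulin, were 8 and 17. The members were at or near 0 there too, with counts of 0 for SLC4A1, SLC4A9 and ATP6V0A4, 4 for SLC26A4, 6 for FOXI1, 8 for RHCG, 12 for ATP6V1G3, 57 for ATP6V0D2 and 385 for ATP6V1B1. A count of 0 allowed an FPKM of up to 0.00938 for SLC4A1, 0.0123 for SLC4A9 and 0.0108 for ATP6V0A4 (3 counts, counting error only). The summed FPKM of the members was 3.89 in that library and 239 to 451 in the others. Among those 14, ALB was highest in AFB1 replicates 2 and 3, at 23.9 and 11.8 FPKM. Total counts were 50255295 to 68747047 per library.

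In the deposited table SLC4A1 lies on chromosome 11 at 43802099 to 43819333 on the minus strand, SLC26A4 on chromosome 4 at 50189660 to 50253813 on the plus strand and SLC4A9 on chromosome 5 at 49223011 to 49242055 on the plus strand. ATP6V1B1 lies on chromosome 3 at 92993113 to 93018740 on the plus strand, ATP6V0A4 on chromosome 4 at 103837944 to 103908337 on the minus strand, ATP6V0D2 on chromosome 9 at 89465990 to 89521157 on the minus strand and ATP6V1G3 on chromosome 12 at 76813399 to 76844189 on the minus strand. FOXI1 lies on chromosome 16 at 2198020 to 2201872 on the plus strand and RHCG on chromosome 18 at 20250857 to 20284546 on the minus strand. The spans cover whole genes, and each value sums over a gene. The files name no genome build, and chromosome numbers were read from a RefSeq table of ARS-UI_Ramb_v3.0, in which the same spans stand for all 9 genes.

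The kidneys held the members at very different levels, and none of the 9 passed the test between groups. FPKM, a fragment count scaled to gene length and sequencing depth, is a level per length and can be set side by side between genes. Over the 14 libraries ATP6V1B1 had the highest level, with a median of 194 FPKM, and RHCG and SLC4A9 followed at 42.1 and 37.1. ATP6V0A4 had a median of 22.8, ATP6V0D2 16.3, FOXI1 13.2 and SLC4A1 7.26, whereas SLC26A4 and ATP6V1G3 were low at 1.98 and 1.40. Neighbours in the order of mean log2(FPKM + 1) were compared within libraries (8 pairs, two-sided exact sign-flip permutation test, n = 14, Benjamini-Hochberg adjusted). SLC4A9 and RHCG did not differ beyond their spread (mean difference 0.0044 on the log2 scale, SD 0.49, adjusted p = 0.973, SLC4A9 higher in 6 of 14), nor did SLC26A4 and ATP6V1G3 (difference 0.27, SD 0.74, adjusted p = 0.215, SLC26A4 higher in 11 of 14). ATP6V0A4 exceeded ATP6V0D2 in 12 of 14 libraries (difference 0.46, SD 0.51, adjusted p = 0.00625) and ATP6V0D2 exceeded FOXI1 in 10 of 14 (difference 0.34, SD 0.53, adjusted p = 0.0459). The other 4 steps held in 14 of 14 libraries, with an adjusted p = 0.000244 from the exact permutation test in each, the smallest value reached. The length behind FPKM was not given, and the counts imply 10.4 kb for RHCG against 2.08 kb for ATP6V1B1, so that 12990 to 37855 RHCG fragments stood behind its lower FPKM and 15803 to 31202 behind that of ATP6V1B1.

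SLC4A1, the chloride and bicarbonate exchanger of type A cells that is also the major membrane protein of red cells, had FPKM values of 6.24, 7.83, 7.65, 4.61 and 4.65 in CON replicates 1 to 5, 5.08, 7.41, 13.4 and 7.11 in AFB1 replicates 2 to 5, and 3.57, 7.79, 11.2, 9.12 and 5.09 in AFB1_CUR replicates 1 to 5. AFB1 replicate 4 was the highest and AFB1_CUR replicate 1 the lowest, and the groups overlapped. Of 9 erythroid genes listed, 7 were in the table, and EPB42, a red cell membrane gene, did not exceed 0.0395 FPKM in any of the 14 libraries. HBB, the beta globin, was 0.903 to 138 FPKM, highest in AFB1_CUR replicate 4, and the summed erythroid list ranged from 2.78 to 25.6 in CON, 2.92 to 25.9 in AFB1 and 1.92 to 140 in AFB1_CUR.

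SLC26A4, pendrin, had 0.219, 1.53, 3.25, 2.04 and 1.74 FPKM in CON, 2.04, 2.82, 0.857 and 3.16 in AFB1 replicates 2 to 5, and 0.889, 1.92, 1.798, 2.41 and 4.10 in AFB1_CUR. Its lowest and highest values, in CON replicate 1 and AFB1_CUR replicate 5, lay 18.7-fold apart, the widest range of the 9 genes. SLC4A9, a basolateral anion exchanger of type B cells, had 41.6, 61.5, 36.8, 52.1 and 29.1 in CON, 28.6, 66.9, 41.7 and 32.9 in AFB1 and 32.05, 31.99, 37.4, 34.9 and 43.0 in AFB1_CUR. The AFB1_CUR kidneys were close together (SD 4.59 FPKM, n = 5), whereas CON (SD 12.7, n = 5) and AFB1 (SD 17.1, n = 4) each reached above 60 FPKM.

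ATP6V1B1, the B1 subunit of the cytosolic sector of the pump, had 183, 211, 222, 200 and 137 FPKM in CON, 189, 219, 250 and 148 in AFB1 replicates 2 to 5 and 158, 169, 235, 174 and 216 in AFB1_CUR. It was the steadiest member, with a coefficient of variation of 17.5% over the 14 libraries, and 98.2% of the tested genes had a lower CON mean. ATP6V0A4, the a4 subunit of the membrane sector, had 16.0, 24.2, 34.2, 23.3 and 11.8 in CON, 20.2, 30.7, 32.9 and 27.1 in AFB1 and 16.4, 21.4, 25.25, 21.4 and 22.4 in AFB1_CUR. CON held both its highest and its lowest value.

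ATP6V0D2, the d2 subunit of the membrane sector, which osteoclasts and macrophages also use, had 13.2, 10.1, 26.8, 17.2 and 15.1 FPKM in CON, 7.45, 19.8, 36.7 and 11.3 in AFB1 and 15.9, 19.7, 14.2, 18.1 and 16.7 in AFB1_CUR. The AFB1 kidneys held the lowest and the highest value, and AFB1_CUR lay between 14.2 and 19.7. Of 4 osteoclast genes, the fusion genes DCSTAMP and OCSTAMP did not exceed 0.269 and 0.351 FPKM, whereas CTSK and ACP5 were measured at 10.01 to 28.5 and 8.61 to 30.6. The sum of the 4 ranged over 25.8 to 41.3 in CON, 19.2 to 46.1 in AFB1 and 27.6 to 59.2 in AFB1_CUR, and its part in the ATP6V0D2 level was not tested. ATP6V1G3, the G3 subunit of the stalk, had 1.27, 2.24, 1.85, 0.958 and 0.791 in CON, 1.08, 1.62, 4.09 and 0.579 in AFB1 and 0.512, 1.49, 1.49, 1.32 and 1.67 in AFB1_CUR. AFB1 replicate 4 stood well above all other libraries.

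FOXI1, the transcription factor, had 10.2, 11.99, 14.8, 14.2 and 8.91 FPKM in CON, 12.8, 16.6, 18.5 and 11.4 in AFB1 replicates 2 to 5 and 6.78, 9.71, 13.6, 13.6 and 19.2 in AFB1_CUR. AFB1_CUR held both its lowest and its highest library. RHCG, which carries ammonia into the urine and is found in principal as well as intercalated cells, had 42.3, 57.4, 53.6, 24.4 and 30.2 in CON, 30.4, 50.1, 52.3 and 55.6 in AFB1 and 24.6, 47.3, 34.5, 41.9 and 28.9 in AFB1_CUR. Of its 4 AFB1 values 3 were above all 5 AFB1_CUR values, and AFB1 replicate 2 was among the latter.

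**Figure D1:**
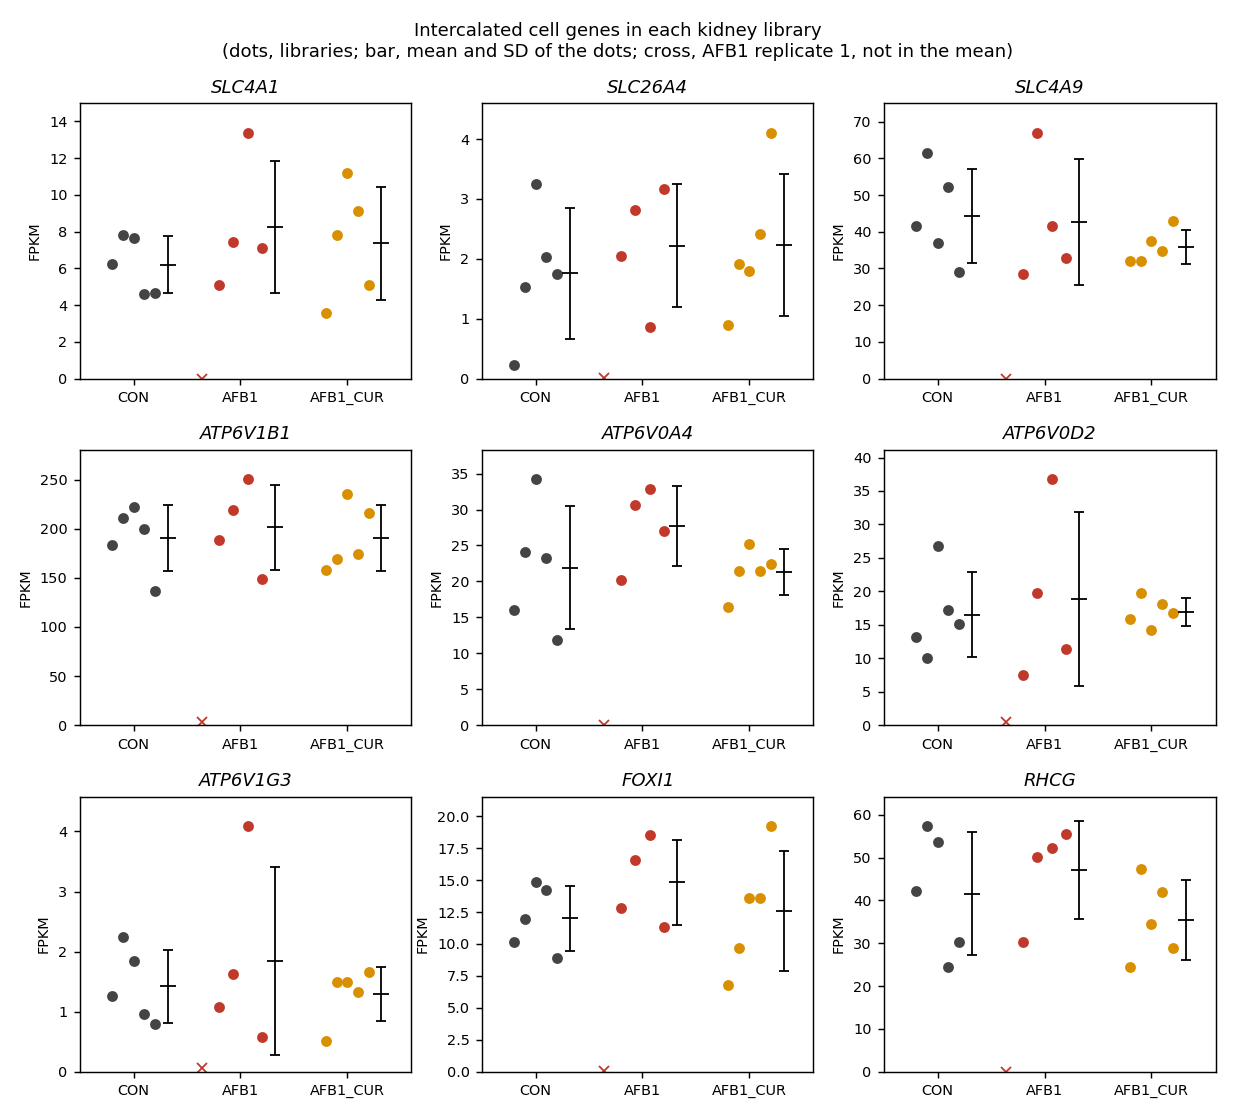
FPKM of the 9 genes in each library (dots, replicates in order from left to right within CON, AFB1 and AFB1_CUR), with the mean and SD of the dots beside them and AFB1 replicate 1 as a cross that enters no mean. The groups overlap in every panel, and the cross lies at or near 0, for example at 3.31 FPKM in the ATP6V1B1 panel where the dots run from 137 to 250.

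Between AFB1 and CON, none of the 9 members was called (unadjusted p under 0.05 with a fold change above 1.5, the screen of the study, edgeR's quasi-likelihood test), where 1.76% of the 13162 tested genes were (232 genes), and none of the 9 was without overlap of the groups, where 1.54% of tested genes were. The estimate was above 0 for 8 of the 9, with a median log2 fold change of 0.29 against 0.016 over all tested genes, of which 53.4% were above 0. The change of ATP6V0A4 had the smallest p of the 9 at 0.35 (SE 0.26, unadjusted p = 0.196 and adjusted p = 0.965 by edgeR), which is 1.27-fold with a 95% interval of 0.870 to 1.86. SLC4A1 had the largest estimate, 0.43 (SE 0.33), and ATP6V1G3 followed at 0.39 (SE 0.49), SLC26A4 at 0.35 (SE 0.58), FOXI1 at 0.29 (SE 0.26), RHCG at 0.21 (SE 0.27), ATP6V0D2 at 0.19 (SE 0.38), ATP6V1B1 at 0.07 (SE 0.18) and SLC4A9 at -0.06 (SE 0.24). In whole tissue, a difference in the number of intercalated cells and a difference in RNA per cell cannot be told apart. With AFB1 replicate 1 in the fit none of the 9 was called, and the estimates of ATP6V1B1 (-0.24), ATP6V0D2 (-0.11), FOXI1 (-0.02) and RHCG (-0.11) lay below 0, and without AFB1 replicate 4 those of ATP6V1G3 (-0.40), ATP6V0D2 (-0.38) and ATP6V1B1 (-0.06) did. Without AFB1 replicate 4 the estimate of SLC4A1 was 0.08, and that of SLC26A4 was 0.61. For ATP6V0A4 the estimate was 0.57 without CON replicate 3 and 0.03 with AFB1 replicate 1 in the fit.

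Between AFB1_CUR and AFB1, all 9 estimates were below 0, with a median of -0.30 against 0.00032 over all tested genes, and none of the 9 was called or without overlap, where 0.935% (123 genes) and 0.676% of tested genes were. RHCG had the smallest p, with a log2 fold change of -0.51 (SE 0.27, unadjusted p = 0.0790 and adjusted p = 1 by edgeR), or 0.703-fold with a 95% interval of 0.472 to 1.05. ATP6V0A4 was next at -0.45 (SE 0.26, unadjusted p = 0.0989 by edgeR), or 0.731-fold with an interval of 0.499 to 1.07. The estimate of ATP6V1G3 was larger and less certain at -0.59 (SE 0.49), and those of SLC4A9 (-0.31), FOXI1 (-0.30), SLC4A1 (-0.25), ATP6V0D2 (-0.24), ATP6V1B1 (-0.14) and SLC26A4 (-0.08) were smaller. Without AFB1 replicate 2, the AFB1 kidney with the lowest RHCG value, RHCG (-0.69, unadjusted p = 0.0175 by edgeR) and ATP6V0A4 (-0.60, unadjusted p = 0.0364 by edgeR) passed the screen, as did 261 of the 13048 genes tested in that fit. The AFB1 libraries are shared with the comparison before, so the signs of the 2 comparisons are not independent.

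Between AFB1_CUR and CON, 2 estimates were above 0 and 7 below, with a median of -0.07 against -0.0029 over all tested genes, and again none of the 9 was called or without overlap, where 1.63% (214 genes) and 0.722% of tested genes were. SLC4A9 had the smallest p, at -0.36 (SE 0.23, unadjusted p = 0.134 and adjusted p = 0.829 by edgeR), or 0.777-fold with a 95% interval of 0.552 to 1.09. FOXI1 was at -0.01 (SE 0.25) and ATP6V1B1 at -0.07 (SE 0.17), the latter with an interval of 0.737 to 1.23 on the linear scale. A p that misses the threshold does not show that the levels were the same, and the widest interval of this comparison, that of SLC26A4, ran from 0.527-fold to 2.73-fold. With Benjamini-Hochberg adjustment 0% of tested genes were called in each of the 3 comparisons by edgeR, whereas DESeq2 called 22, 3 and 1 and limma 0. An unadjusted p of 0.05 by edgeR was passed by 664, 303 and 723 of the 13162 tested genes. Where no gene differs, a share near 0.05 of tested genes is counted at that threshold, so these counts are not read as changed genes.

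**Figure D2:**
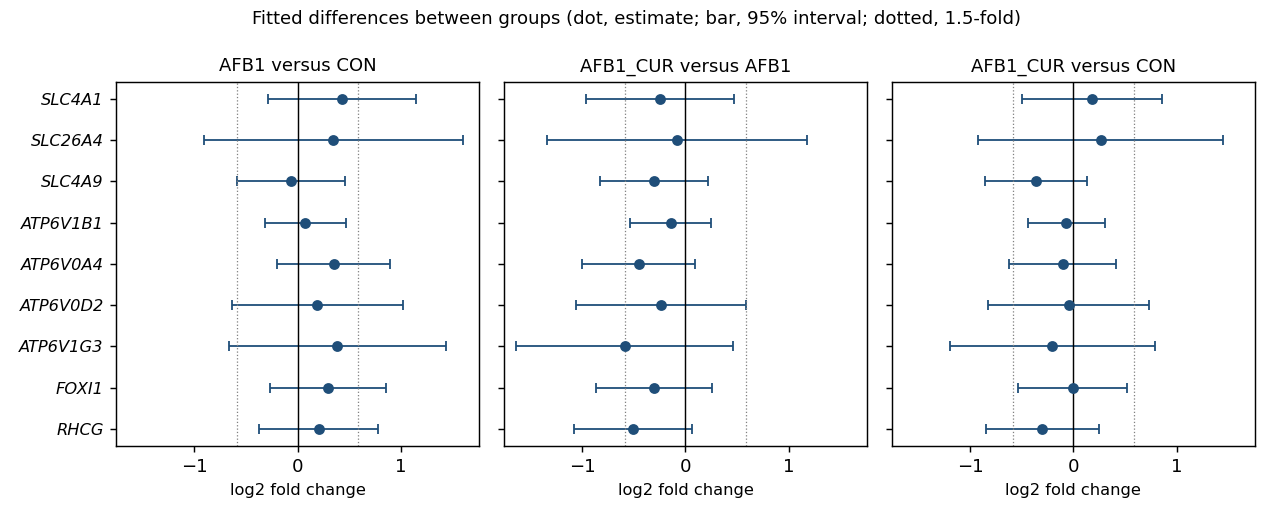
Log2 fold change of each member in the 3 comparisons (dot, edgeR estimate on 14 libraries; bar, 95% interval; dotted lines, 1.5-fold either way). Every interval spans 0, and the narrowest belong to ATP6V1B1, from -0.32 to 0.47 in AFB1 versus CON.

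The proton pump is built from further subunits, many of which nearly every cell makes. Of 21 other V-ATPase subunits and accessory proteins, 19 were tested and 0 were called in each comparison. Of all tested genes, 1.76%, 0.935% and 1.63% were called in AFB1 versus CON, AFB1_CUR versus AFB1 and AFB1_CUR versus CON. With so few genes, 0 calls cannot be told apart from these shares. The median log2 fold change of the 19 was 0.07 in AFB1 versus CON, -0.09 in AFB1_CUR versus AFB1 and -0.04 in AFB1_CUR versus CON, within a range of -0.24 to 0.21. A single gene, chosen here after its values were seen, had an unadjusted p under 0.05: ATP6V0E1, the small e1 subunit, at 0.21 in AFB1 versus CON (SE 0.09, unadjusted p = 0.0395 and adjusted p = 0.957 by edgeR). Of 22 further intercalated cell and acid-base genes, 19 were in the table and 13 were tested, and 0 were called, with the same limit. Their medians were 0.07, -0.26 and -0.16 in the 3 comparisons, with 9, 4 and 3 of 13 above 0.

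Members with a widely expressed paralog differed in which copy led. ATP6V1B1 exceeded ATP6V1B2, the B2 subunit of most tissues, in 14 of 14 libraries, with an FPKM ratio of 6.85 to 13.0 and a median of 9.002 (two-sided exact sign-flip permutation test, adjusted p = 0.000244 over 4 pairs). ATP6V1G3 lay far below the ubiquitous ATP6V1G1 in 14 of 14, with a ratio of 0.0074 to 0.0504 (median 0.0184, same exact test and adjusted p = 0.000244). ATP6V0A4 and ATP6V0A1 did not differ beyond their spread, with a median ratio of 1.01 (0.431 to 1.65, ATP6V0A4 higher in 7 of 14, adjusted p = 0.333 by the exact test), nor did ATP6V0D2 and ATP6V0D1, with a median ratio of 1.17 (0.653 to 3.17, ATP6V0D2 higher in 8 of 14, adjusted p = 0.333 by the exact test). The last ratio depends on the gene lengths behind the FPKM, since the length implied by counts and FPKM was 8.998 kb for ATP6V0D1 and 2.184 kb for ATP6V0D2, and the counts ran from 5498 to 11429 and from 871 to 4353. The paralogs varied less from kidney to kidney than the members did, with coefficients of variation of 8.22% for ATP6V1B2, 17.1% for ATP6V0A1, 18.4% for ATP6V0D1 and 5.88% for ATP6V1G1, against 17.5%, 27.4%, 42.3% and 59.5% for ATP6V1B1, ATP6V0A4, ATP6V0D2 and ATP6V1G3. In AFB1 replicate 1 the order of the B subunits was turned, with ATP6V1B1 at 0.208 of ATP6V1B2.

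**Figure D3:**
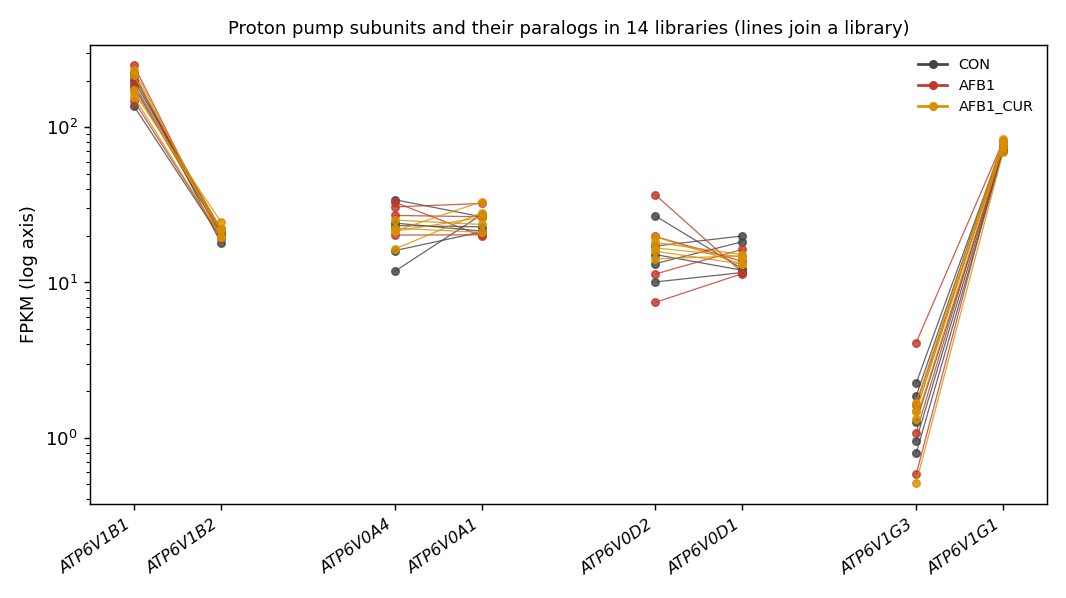
FPKM on a log axis of 4 proton pump subunits and of their paralogs, with a line for each of the 14 libraries coloured by group. All lines fall from ATP6V1B1 to ATP6V1B2 and rise from ATP6V1G3 to ATP6V1G1, whereas the lines of the a and d subunits cross.

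Ratios within a library set type B genes against SLC4A1 of type A cells, and none passed the test between groups. The log2 ratio of SLC4A9 to SLC4A1, each as FPKM + 1, was 2.63 ± 0.42 (SD, n = 5) in the CON kidneys, 2.23 ± 0.60 (n = 4) in AFB1 and 2.22 ± 0.59 (n = 5) in AFB1_CUR. Its difference was -0.40 between AFB1 and CON (p = 0.270, two-sided exact permutation test) and -0.41 for AFB1_CUR against CON (p = 0.246, same exact test), the smallest p of 12 such tests, all with an adjusted p of 1. For SLC26A4 to SLC4A1 the CON kidneys had -1.47 ± 0.71, the AFB1 kidneys -1.51 ± 0.96 and the AFB1_CUR kidneys -1.36 ± 0.69. For ATP6V1B1 to AQP2, intercalated against principal cells, the CON kidneys had -0.89 ± 0.32, the AFB1 kidneys -0.91 ± 0.29 and the AFB1_CUR kidneys -0.97 ± 0.09. ATP6V1B1 to ATP6V1B2 stood at 3.16 ± 0.29, 3.22 ± 0.35 and 3.07 ± 0.31.

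Most members varied more between kidneys than the median tested gene did, taken over the 14 libraries together. The median coefficient of variation over the 14 libraries was 29.2% for the 9 members and 20.3% for the 13162 tested genes, and 8 of the 9 were above the latter, ATP6V1B1 being the exception. Tested genes of other segments were also mostly above it, at 19.9% to 74.2% for principal cell genes, 25.4% to 52.0% for proximal tubule genes, 27.2% to 72.5% for thick ascending limb genes and 22.2% to 50.6% for distal convoluted tubule genes. AFB1 replicate 4 held the highest value of 4 members, and AFB1_CUR replicate 1 the lowest of 3. AFB1 replicate 3 was above the gene's mean for 9 of 9 members, and CON replicate 5 and AFB1_CUR replicate 1 for 0 of 9.

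**Figure D4:**
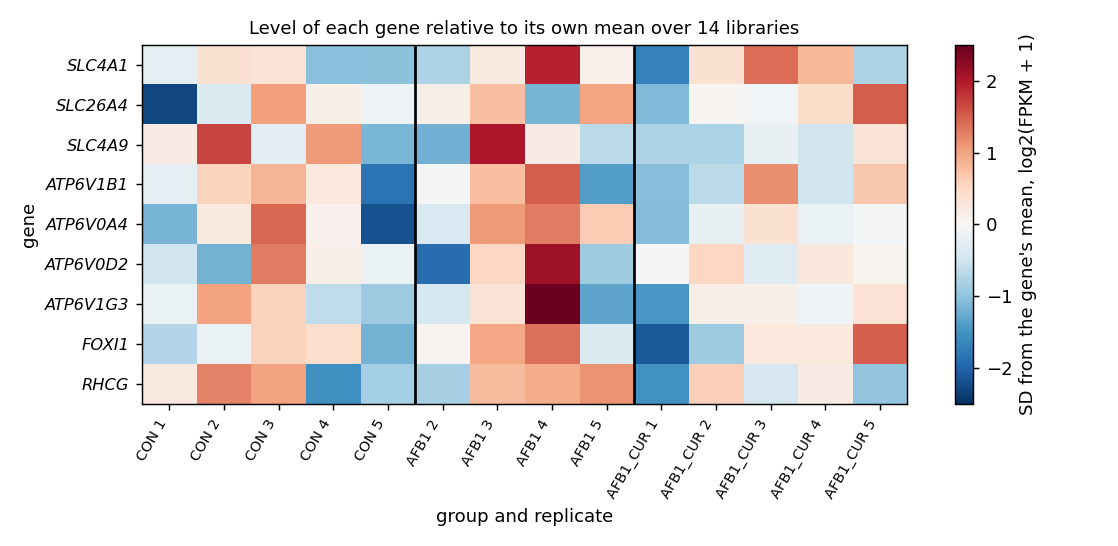
Level of each member in each of the 14 libraries, as SDs of log2(FPKM + 1) from that gene's mean (red above, blue below), with black lines between CON, AFB1 and AFB1_CUR. CON replicate 5 and AFB1_CUR replicate 1 are below the mean in 9 of 9 rows and AFB1 replicate 3 above it in 9 of 9, and SLC26A4 departs most from the pattern of the other rows.

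Several members rose and fell together from kidney to kidney. Over the 36 pairs, Pearson's r of log2(FPKM + 1) was positive in 34, with a median of 0.45, and 13 had an unadjusted permutation p under 0.05 and 7 an adjusted one (n = 14). The same counts were not taken for other sets of tested genes, so they do not set the members apart. The closest pair was ATP6V1B1 with ATP6V1G3, subunits of the same sector (r = 0.80, permutation p = 0.00049, adjusted p = 0.0149, rho = 0.82, permutation p = 0.00066), and r was 0.75 without the 2 libraries farthest from the median of ATP6V1B1. ATP6V1B1 with FOXI1 gave r = 0.78 (permutation p = 0.00083, adjusted p = 0.0149, rho = 0.83, permutation p = 0.00038, r = 0.81 without 2). ATP6V1B1 with ATP6V0A4 gave r = 0.72 (permutation p = 0.0035, adjusted p = 0.0287, rho = 0.71, permutation p = 0.00606, r = 0.81 without 2). ATP6V0A4 with FOXI1 gave r = 0.71 (permutation p = 0.00399, adjusted p = 0.0287, rho = 0.71, permutation p = 0.00601, r = 0.70 without 2). Deviations from the group means gave 0.79, 0.79, 0.74 and 0.67 for these 4 pairs, close to the pooled values. Without AFB1 replicate 4, however, 0 of the 36 pairs passed the adjustment, and leaving out other libraries gave up to 9.

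For the other 3 pairs the 2 libraries farthest from the median were AFB1 replicate 4 and AFB1_CUR replicate 1, whereas those left out for the 4 pairs before were other libraries. SLC4A1 with ATP6V1G3 (r = 0.73, permutation p = 0.00244, adjusted p = 0.0287, rho = 0.72, permutation p = 0.00507) gave r = 0.42 without both, and ATP6V1G3 with FOXI1 (r = 0.67, permutation p = 0.00854, adjusted p = 0.0439, rho = 0.68, permutation p = 0.00859) also gave 0.42. SLC4A1 with RHCG (r = 0.70, permutation p = 0.00567, adjusted p = 0.0340, rho = 0.66, permutation p = 0.0121) gave 0.60. With any single library left out, the lowest r was 0.58, 0.58 and 0.62 for these 3 pairs, and 0.59 for ATP6V1B1 with ATP6V0A4. SLC26A4, SLC4A9 and ATP6V0D2 were in none of the 7 pairs. SLC26A4 had a median r of 0.05 with the other 8, and its r with SLC4A1 was -0.03 (permutation p = 0.926, adjusted p = 0.952, rho = -0.05, permutation p = 0.855, r = 0.0034 without 2).

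Some members moved with markers of neighbouring segments. Each of the 9 was set against the summed FPKM of 8 marker lists (72 relations in all, adjusted together). With 11 principal cell markers r was positive for 9 of 9 members, with a median of 0.60, and 3 passed an adjusted p under 0.05. These were ATP6V1B1 (r = 0.91, permutation p = 2e-05, adjusted p = 0.00144, rho = 0.91, permutation p = 4e-05, r = 0.91 without the 2 farthest libraries), ATP6V0A4 (r = 0.82, permutation p = 0.00028, adjusted p = 0.0101, rho = 0.68, permutation p = 0.00839, r = 0.60 without 2) and FOXI1 (r = 0.73, permutation p = 0.00345, adjusted p = 0.0492, rho = 0.75, permutation p = 0.00277, r = 0.74 without 2). The summed principal cell level ran over 475 to 1132 FPKM in CON, 664 to 1033 in AFB1 and 617 to 1015 in AFB1_CUR, with AQP2 at 205 to 582 over the 14 libraries. AQP2 (mean 375 FPKM) and HSD11B2 (mean 264) made up most of that sum, so r with it follows these genes above the other markers. In the distal convoluted tubule list CALB1 (mean 176) and SLC12A3 (mean 78.4) made up most of the sum. None of the 10 tested principal cell genes was called in any comparison, where 0.935% to 1.76% of all tested genes were, and the medians of the 10 were -0.03, -0.09 and -0.10. Outside the principal cell list, 3 relations passed. They were ATP6V0A4 with the distal convoluted tubule list (r = 0.72, permutation p = 0.00366, adjusted p = 0.0492, rho = 0.73, permutation p = 0.00412, r = 0.63 without 2), ATP6V1G3 with podocyte genes (r = 0.76, permutation p = 0.00229, adjusted p = 0.0492, rho = 0.76, permutation p = 0.00209, r = 0.47 without 2) and ATP6V1G3 with hepatocyte genes (r = -0.71, permutation p = 0.0041, adjusted p = 0.0492, rho = -0.76, permutation p = 0.00264, r = -0.78 without 2), whose sum was 75.0 to 200 FPKM in the 14 libraries. F2 (mean 60.3 FPKM) and TF (mean 48.1) made up most of that sum, whereas ALB had a median of 0.955, and AFB1 replicate 5, with the highest sum, had an ALB of 0.044. The median r over the 9 members was 0.49 with the distal convoluted tubule list, 0.45 with podocyte genes, 0.14 with leukocyte genes, -0.03 with erythroid genes, -0.12 with thick ascending limb genes, -0.36 with proximal tubule genes and -0.44 with hepatocyte genes. The part of the share of collecting duct in each piece of tissue was not tested.

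**Figure D5:**
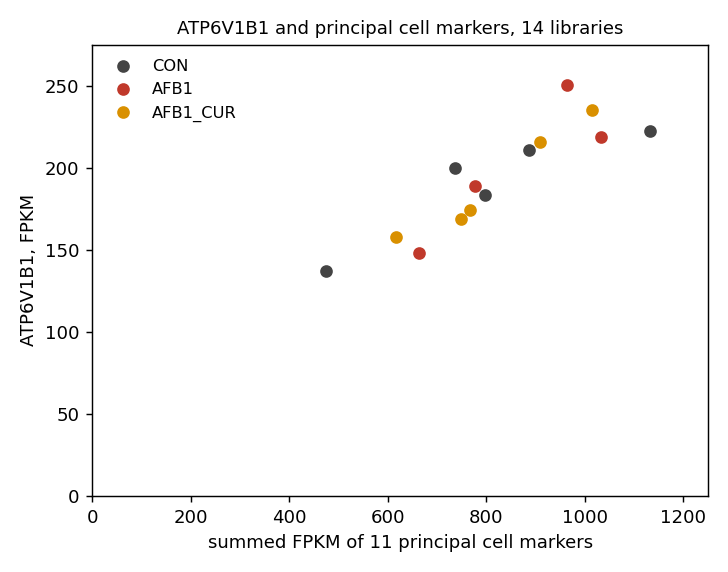
ATP6V1B1 against the summed FPKM of 11 principal cell markers in the 14 libraries, coloured by group. Points rise together from 137 FPKM of ATP6V1B1 in CON replicate 5 to 250 in AFB1 replicate 4, and the 3 groups are mixed along the line.

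Beside these values, other lists also held estimates of one sign or nearly so. Their counts of called genes stand beside 0.935% to 1.76% of all tested genes called in the 3 comparisons. In the distal convoluted tubule list the 4 tested genes were above 0 in 4 of 4 in AFB1 versus CON (median 0.45) and below 0 in 4 of 4 in AFB1_CUR versus AFB1 (median -0.30), with 0 called. The 10 tested proximal tubule genes were below 0 in 10 of 10 in AFB1 versus CON (median -0.33), with 1 called lower, the amino acid transporter SLC7A9 (-0.84, unadjusted p = 0.0490 by edgeR). The 5 tested leukocyte genes were above 0 in 5 of 5 in each comparison, with medians of 0.82 in AFB1 versus CON, 0.21 in AFB1_CUR versus AFB1 and 0.93 in AFB1_CUR versus CON, and 1 was called higher in the last, the macrophage gene CD68 (unadjusted p = 0.0455 by edgeR). The summed leukocyte list was 117 FPKM in AFB1 replicate 2 and 180 in AFB1_CUR replicate 2. Other libraries of these groups had 20.5 to 43.0, and CON had 10.7 to 41.7. CD68 in AFB1_CUR had a mean of 2.66 FPKM with an SD of 3.67. The 10 tested principal cell genes were below 0 in 10 of 10 in AFB1_CUR versus CON (median -0.10), with 0 called. Of the 7 tested hepatocyte genes, 6 were below 0 in AFB1_CUR versus AFB1 (median -0.22), and 1 was called lower, the albumin gene ALB (-3.75, unadjusted p = 0.0143 by edgeR). ALB was 23.9 and 11.8 FPKM in AFB1 replicates 2 and 3, but 0.215 and 0.044 in AFB1 replicates 4 and 5. SLC7A9 and CD68 were named after their values were seen. The part of these lists in the members' estimates was not tested.

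Over the 13153 other tested genes, those most like the mean of the members' standardized levels were HSD11B2 (r = 0.93 over 14 libraries), the enzyme that shields the mineralocorticoid receptor from cortisol and itself one of the principal cell markers, AIF1L (0.92), TMEM213 (0.92), EPN3 (0.92) and KCNQ1, a potassium channel (0.91). TMEM213 was at 93.2 to 218 FPKM and listed at 0 in AFB1 replicate 1. Genes closest to single members were GATA2 (0.86) and CIB2 (0.83) for SLC4A1, TGFA (0.85) and AKAP1 (0.82) for SLC26A4 and SLC8A1 (0.82) and LPIN3 (0.81) for SLC4A9. For the pump they were HOXD9 (0.92) and ARHGAP8 (0.91) with ATP6V1B1, HOXD8 (0.90) and HSD11B2 (0.90) with ATP6V0A4, LOC105603234 (0.76) with ATP6V0D2, and PYM1 (0.90) and TSPAN7 (0.90) with ATP6V1G3. FOXI1 was closest to EPN3 (0.87) and LOC121820604 (0.86), and RHCG to OXGR1 (0.85), the 2-oxoglutarate receptor of type B intercalated cells, and RNF186 (0.85). These likenesses were picked as the highest of many and are given as descriptions without a test.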

How the data were processed

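Kidney RNA of 15 sheep libraries (5 for each of CON, AFB1 and AFB1_CUR) was sequenced by the authors as paired reads. Reads were aligned with HISAT2 2.2.1, a version that the submitters' processing notes list beside cutadapt 1.9, StringTie 2.1.6, DESeq2 and edgeR. Labels, headers and methods named no counting tool, gene lengths or reference assembly (not given in the sources used here). Raw counts and FPKM values per gene and library were deposited by the authors. Libraries were grouped by their titles. The members and all gene lists were chosen with earlier results of these data known.

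Genes reaching 1 FPKM in 5 or more of 14 libraries were tested with edgeR 4.0.16 (quasi-likelihood test, TMM normalization, R 4.3.3), with the 3 groups in a single model and AFB1 replicate 1 left out. A call needed a fold change above 1.5 at an unadjusted p under 0.05. Benjamini-Hochberg adjustment ran over all tested genes. Ratios, levels and correlations used log2(FPKM + 1) with exact permutation tests or 100000 permutations (scipy 1.17.1). Percentages of variation are SD over mean of FPKM. By a fixed rule, named genes were the members, paralogs of pump subunits, called genes of the pump and acid-base lists, the genes most correlated with the members (5 with their mean, 2 with each), and the markers AQP2, UMOD and ALB. Other genes named, among them ATP6V0E1, single genes of the marker lists and genes high in AFB1 replicate 1, lay outside this rule and were chosen after their values were seen. Some items under this rule are not reported here. The model was checked on simulated counts. Alternatives were DESeq2 1.42.0, limma 3.58.1 on log2 FPKM with a pseudocount of 1 or 0.1, sample quality weights, other scaling and filters, compared groups alone, all 15 libraries, a replicate block and each library left out.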

Additional observations from a re-analysis of the deposited data

Results flagged for a closer look

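Of 39 groups of values examined for a library far from the others of its group, 3 held one, and a test at the 95% level marks some groups by chance alone. ATP6V1G3 was 0.512 FPKM in AFB1_CUR replicate 1, below the 1.32 to 1.67 of the other 4 AFB1_CUR libraries. The log2 ratio of SLC26A4 to SLC4A1 was -2.95 in AFB1 replicate 4, where the other 3 AFB1 libraries had -1.14 to -0.96. The log2 ratio of ATP6V1B1 to AQP2 was -0.81 in AFB1_CUR replicate 2, above the -1.03 to -0.98 of the other 4.

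In AFB1 replicate 1, which entered no comparison of the main model, 3 genes of the acid-base list were far above the 14 other libraries. RHBG, an ammonia transporter also made in liver, was 81.1 FPKM there and 1.04 to 8.68 in the others. ATP4A, the gastric type proton pump, was 15.8 there and 0.0585 to 0.646 in the others, and DMBT1 was 63.1 against 0.0095 to 5.15. Each rests on a single library.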

How the results depend on the processing

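With 4 or 5 kidneys a group, the 95% intervals of the members reached up to 3.03-fold, for SLC26A4 in AFB1 versus CON, and down to 0.322-fold, for ATP6V1G3 in AFB1_CUR versus AFB1, so small changes were not detectable. AFB1 replicate 1, limma's scale and single libraries moved signs, and the cause was not tested. No member was called under any alternative except RHCG and ATP6V0A4, counted as 2 members without AFB1 replicate 2 in AFB1_CUR versus AFB1 (0 to 2 over the left-out libraries), where 261 of 13048 tested genes were called.

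Genes called, in the order AFB1 versus CON, AFB1_CUR versus AFB1 and AFB1_CUR versus CON, were 639, 525 and 131 with all 15 libraries, 105, 81 and 80 by limma on log2(FPKM + 1) and 867, 707 and 928 without the filter on low values, and sample quality weights gave 336 in the second. Leaving out a library gave 204 to 454, 119 to 261 and 115 to 305. After adjustment, DESeq2 called 22, 3 and 1 genes, and the compared groups alone gave 1 in the first. Pairs of members past the adjustment were 33 with all 15 libraries and 0 to 9 with a library left out.

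The replicate numbers were not used to pair the samples in the main model. Of 13 same-number pairs 7 correlated above 0.1 (r from -0.31 to 0.60), and 4 libraries correlated best with their own number. The replicate 2 libraries gave r of 0.60, 0.44 and 0.40, and CON replicate 5 with AFB1 replicate 5 gave 0.38. These correlations were set against no null, so a pen or batch shared by number was not tested. The replicate block gave 228, 150 and 282 called genes, no member call, and signs turned for SLC26A4 (0.34) and ATP6V0D2 (0.049) in AFB1_CUR versus AFB1 and ATP6V0D2 (0.064) in AFB1_CUR versus CON.

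All other changes of sign were in comparisons in which no test called that member or ratio. With all 15 libraries, log2 changes became -0.24 for ATP6V1B1, -0.11 for ATP6V0D2, -0.023 for FOXI1 and -0.11 for RHCG in AFB1 versus CON, and 0.077 for SLC4A1, 0.23 for SLC26A4, 0.019 for SLC4A9, 0.17 for ATP6V1B1, 0.075 for ATP6V0D2 and 0.020 for FOXI1 in AFB1_CUR versus AFB1. Limma with a pseudocount of 1 or 0.1 gave ATP6V0D2 0.077 or 0.094 in AFB1_CUR versus AFB1, and in AFB1_CUR versus CON ATP6V1B1 0.0012 in both, ATP6V0A4 0.039 or 0.045, ATP6V0D2 0.097 or 0.11 and FOXI1 0.0095 or 0.0057. Sample quality weights gave SLC4A9 0.022 in AFB1 versus CON, SLC26A4 0.18 in AFB1_CUR versus AFB1, and ATP6V0D2 0.016 and FOXI1 0.063 in AFB1_CUR versus CON.

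With a library left out, log2 changes ranged, in AFB1 versus CON, from -0.33 to 0.11 for SLC4A9, -0.064 to 0.16 for ATP6V1B1, -0.38 to 0.47 for ATP6V0D2 and -0.40 to 0.67 for ATP6V1G3. In AFB1_CUR versus AFB1 they ranged from -0.45 to 0.10 for SLC4A1, -0.42 to 0.21 for SLC26A4, -0.51 to 0.33 for ATP6V0D2 and -0.87 to 0.20 for ATP6V1G3. In AFB1_CUR versus CON they ranged from -0.025 to 0.35 for SLC4A1, -0.071 to 0.61 for SLC26A4, -0.17 to 0.013 for ATP6V1B1, -0.26 to 0.12 for ATP6V0A4, -0.19 to 0.20 for ATP6V0D2 and -0.20 to 0.14 for FOXI1.

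Of the log2 ratios, SLC26A4 to SLC4A1 turned to 0.16 in AFB1 versus CON with a pseudocount of 0.1 and to 0.26 with all 15 libraries, and to -0.16 in AFB1_CUR versus AFB1 with all 15. SLC4A9 to SLC4A1 turned in AFB1_CUR versus AFB1 to 0.0091 with a pseudocount of 0.1 and 0.43 with all 15. With all 15, ATP6V1B1 to ATP6V1B2 became -0.97 in AFB1 versus CON and 0.89 in AFB1_CUR versus AFB1, and ATP6V1B1 to AQP2 became 0.57 in AFB1 versus CON. Left-out libraries gave SLC26A4 to SLC4A1 -0.32 to 0.43, -0.33 to 0.34 and -0.17 to 0.29 in the 3 comparisons, SLC4A9 to SLC4A1 -0.23 to 0.25 in AFB1_CUR versus AFB1, ATP6V1B1 to ATP6V1B2 -0.070 to 0.19 in AFB1 versus CON and -0.20 to 0.012 in AFB1_CUR versus CON, and ATP6V1B1 to AQP2 -0.16 to 0.061, -0.13 to 0.083 and -0.20 to 0.0060.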
